A study of Rattus norvegicus with 67 samples.

Results

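The animals described here were the 19 F3 generation male rats of the atrazine lineage that had no disease, out of 66 animals with counts. They carry different treatment tags in the sample list. Animals M59, M62, M65, M67, M68 and M69 have the tag DMSO (6 animals, called DMSO-tagged), and M20, M22, M24, M25, M31, M39, M40, M43, M45, M46, M47, M53 and M55 have the tag Atrazine (13 animals, called atrazine-tagged). The title and the lineage tag place all 19 in the atrazine lineage, so the DMSO tag contradicts them. The comparison asks whether sperm histone retention differed between the tags, and whether the DMSO-tagged animals were closer to the control lineage.

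All groups were outbred Hsd:Sprague Dawley rats whose sperm was collected at 1 year of age. In the atrazine lineage the gestating F0 female, 90 days old, was given 25 mg/kg of atrazine by injection into the peritoneum on gestation days 8 to 14, and the F0 female of the control lineage received the vehicle, dimethyl sulfoxide (DMSO). The F3 animals themselves were not dosed. The control lineage animals, all of which carry the treatment tag Atrazine, were represented by 9 animals without disease. A second, separate set of animals with disease held 7 DMSO-tagged and 24 atrazine-tagged animals of the atrazine lineage and 7 animals of the control lineage. The DMSO tag covers M57 to M69, the highest animal numbers of the series, so that the tag and the order of the numbers cannot be told apart. The methods describe pools of sperm, while the counts are given per animal.

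Atrazine is a herbicide that acts as an endocrine disruptor. During sperm maturation most histones are replaced by protamines, small basic proteins that pack the DNA tightly, and a small part of the genome keeps its nucleosomes. Chromatin immunoprecipitation with an antibody against histone H3, followed by sequencing (ChIP-Seq), counts the DNA fragments that remain bound to these retained histones, and a region in which the count differs between groups is called a differential histone retention region (DHR).

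Total counts were between 22211333 (M67) and 239635003 (M68) in the DMSO-tagged animals and between 38409132 and 80885350 in the atrazine-tagged animals, and M68 was the most deeply sequenced library of the series. The control lineage libraries ranged from 27658385 to 163344139. The mean total did not differ beyond the spread between animals (exact permutation test, two-sided, p = 0.395). The share of reads in the 5% of windows with the most reads, at a common depth of 22000000 reads, was 14.6% ± 0.740 (SD, n = 6) in DMSO-tagged and 14.7% ± 0.352 (SD, n = 13) in atrazine-tagged animals (exact permutation p = 0.646). M22 stood apart from the other libraries, with a mean correlation of 0.606 with the control lineage animals over the 100 kb profile described next. In the other 12 atrazine-tagged animals this value was at least 0.831. The control lineage animals M8 and M13 had a higher mean correlation with the atrazine-tagged animals (0.919 and 0.888) than with the other control lineage animals (0.856 and 0.829), while the other 7 had the opposite order. P-values of the exact permutation tests measure the spread between these animals. Those of edgeR's quasi-likelihood test combine the spread between animals at a window with that at all other windows. In the fit by tag the other windows had a weight of 83.2 degrees of freedom. No lane or batch of the libraries is given.

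Relative closeness of the genome-wide profile to the control lineage was higher in the DMSO-tagged than in the atrazine-tagged animals. Closeness was measured per animal as the mean Pearson correlation with the 9 control lineage animals less the mean correlation with the other 18 healthy atrazine lineage animals, over log2 reads in 26153 autosomal bins of 100 kb. A value above 0 means that an animal resembled the control lineage more than it resembled its own lineage. Most of the other 18 animals are atrazine-tagged, so a difference between the tags alone can raise the closeness of DMSO-tagged animals. The correlation with the control lineage itself had a median of 0.928 in DMSO-tagged and 0.919 in atrazine-tagged animals, and the ranges overlapped. M62 had the highest closeness, 0.0555, followed by M65 with 0.0259 and M68 with 0.0154. The other DMSO-tagged animals had 0.00589 (M67), 0.00534 (M69) and 0.00527 (M59). M62 had the lowest correlation of the 6 with the control lineage, 0.908, and its high closeness came with a lower correlation of 0.852 with its own lineage. In the atrazine-tagged animals the lowest value was -0.0597 (M22), the median was -0.00944 and the highest was 0.0118 (M39). All 6 DMSO-tagged animals were above 0, and 3 of the 13 atrazine-tagged animals were, so that the groups overlapped only through M39. The position relative to 0 rested on M22. Without M22, 2 of the 6 DMSO-tagged animals (M62 and M65) and 0 of the other 12 atrazine-tagged animals were above 0. The DMSO-tagged values were then between -0.0137 and 0.0356 with a median of -0.00801, and the atrazine-tagged values between -0.0382 and -0.00592 with a median of -0.0230.

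The mean closeness was 0.0189 ± 0.0197 (SD, n = 6) in DMSO-tagged and -0.0160 ± 0.0202 (SD, n = 13) in atrazine-tagged animals. The difference of 0.0349 had a 95% interval of 0.0139 to 0.0560 by inversion of the exact permutation test (two-sided p = 0.00144 over 27132 splits). Without M62 the difference was 0.0311 (exact permutation p = 0.00980), and without M22, an omission added after the data were seen, it was 0.0241 (exact permutation p = 0.000862). Without the control lineage animals M8 or M13 it was 0.0468 or 0.0474. With the mean of each surrounding 1 Mb removed from every animal, a setting chosen after the data were seen, the difference was smaller in size, 0.00389, with an exact permutation p of 0.00147.

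The animals with disease, a comparison added after the data were seen, gave the same direction with no animal in common. With the 7 diseased control lineage animals as the reference, closeness in the 7 diseased DMSO-tagged animals had a lowest value of 0.00266, a median of 0.0297 and a highest of 0.0662. In the 24 diseased atrazine-tagged animals the lowest was -0.110, the median was 0.00663 and the highest was 0.0328. All 7 diseased DMSO-tagged and 14 of the 24 diseased atrazine-tagged animals were above 0, and the ranges of the tags overlapped. The difference of the means was 0.0358 (exact permutation test, two-sided, p = 0.0234). Without M28 and M48, the atrazine-tagged animals with the lowest values, it was 0.0173 (exact permutation p = 0.00769), and DMSO-tagged animals then had values between -0.0315 and 0.0195, with a median of -0.0148. The sign of a single animal's value thus depends on which animals it is compared with, and the difference between the tags kept its direction.

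**Figure D1:**
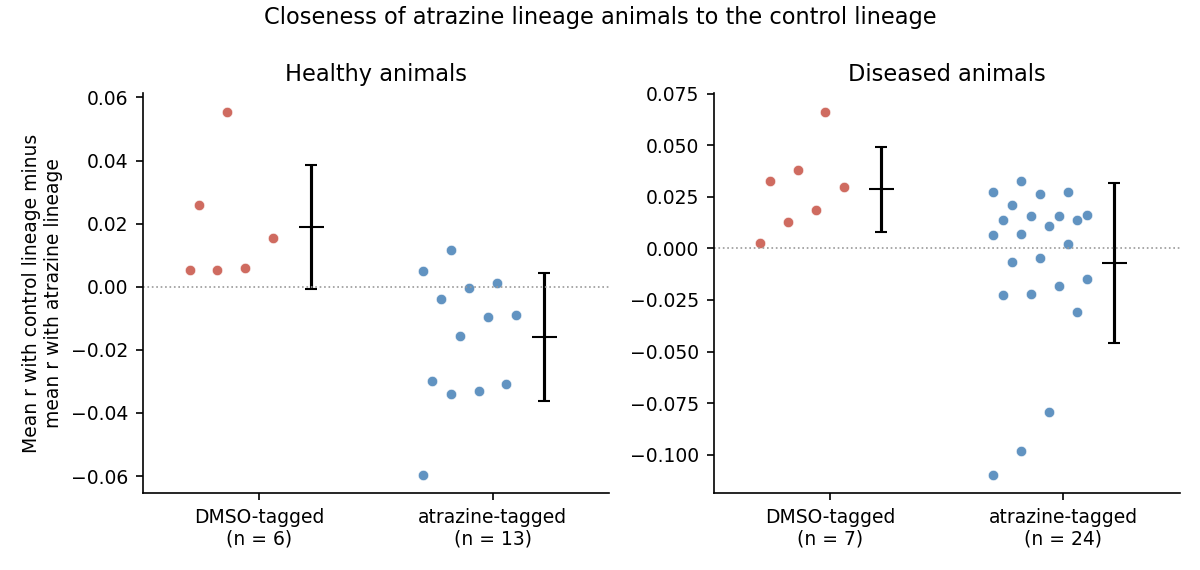
Closeness to the control lineage (vertical axis, mean correlation with control lineage animals less mean correlation with atrazine lineage animals) for each healthy animal (left) and each diseased animal (right). Each point is 1 animal, horizontal offsets within a group have no meaning, and bars are the mean ± SD. All 6 healthy and all 7 diseased DMSO-tagged animals lie above 0 here, while without M22 only 2 healthy DMSO-tagged animals do and without M28 and M48 the diseased DMSO-tagged median is -0.0148.

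Among the DMSO-tagged animals the mean correlation was 0.945 over 15 pairs, and it was 0.925 over the 54 pairs of a DMSO-tagged with a control lineage animal. Pairs of a DMSO-tagged with an atrazine-tagged animal had a mean of 0.892 over 78 pairs, which was close to the 0.898 within the atrazine-tagged animals and the 0.904 within the control lineage. Without M22, pairs of a DMSO-tagged with an atrazine-tagged animal had a mean of 0.918, nearer to the 0.925 with the control lineage, and pairs within the atrazine-tagged animals had 0.932. Pairs of an atrazine-tagged with a control lineage animal had a mean of 0.880 over 117 pairs, and 0.902 without M22. All 6 DMSO-tagged and 5 of the 13 atrazine-tagged animals had a higher mean correlation with the control lineage than with the other atrazine-tagged animals. Without M22 this held for 3 of the 6 DMSO-tagged and 1 of the 12 atrazine-tagged animals. The pairs share animals, so these means are a description.

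Distances between whole profiles were tested by the pseudo-F of all pairwise squared differences. DMSO-tagged and atrazine-tagged animals had a pseudo-F of 3.40 (exact permutation p = 0.0170, adjusted over 3 comparisons 0.0415). The mean squared difference was 0.01758 within the DMSO-tagged animals, 0.03465 within the atrazine-tagged animals and 0.03558 between these groups. The test responds to unequal spread as well as to position, so it does not show a shift of profiles alone. Between DMSO-tagged and control lineage animals the pseudo-F was 0.757 (exact permutation p = 0.601), which does not show that these groups are alike. Atrazine-tagged and control lineage animals had a pseudo-F of 3.26 (exact permutation p = 0.0277, adjusted 0.0415). The adjusted p of the comparison by tag was above 0.05, up to 0.0802, when any of 14 of the 28 animals was left out: M62, M65, M68, M20, M43, M45, M55, M2, M6, M9, M12, M14, M16 or M18. The last 7 are control lineage animals outside this comparison, whose own p stayed at 0.0170, and its adjusted p rose to 0.0510 through the other comparisons. The same 14 omissions took the adjusted p of the atrazine-tagged against the control lineage animals above 0.05, up to 0.102.

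At the windows ranked first by lineage in diseased animals, the healthy DMSO-tagged animals lay on the control side of the healthy atrazine-tagged animals. The 1000 windows with the smallest p between 24 diseased atrazine-tagged and 7 diseased control lineage animals were used, of which 558 were higher in the atrazine-tagged animals. In that comparison 84 windows (0.0035%) had p below 0.0001, fewer than the 240.1 that uniform p-values would give, so the windows are a ranking and not a set of called differences. The lineage score of a healthy animal is its mean log2 read count scaled to library size (RPM) over these windows less the mean of the 28 healthy animals, with the sign turned for windows that were lower. A positive score lies toward the diseased atrazine-tagged animals. The lowest score of a DMSO-tagged animal was -0.157 (M62), the median was -0.0202 and the highest was 0.0109 (M59). Atrazine-tagged animals scored from 0.000325 to 0.259 (M22), with a median of 0.0323, and the next highest was 0.111 (M43). Control lineage animals had scores between -0.166 and 0.102, with a median of -0.0909. With these windows all atrazine-tagged animals were above 0, which is the mean of the 28 animals, and 5 of the 6 DMSO-tagged animals were below it. The lowest atrazine-tagged score was below 0 under each other choice of windows or scale, down to -0.102 for the windows with p below 0.0001.

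The mean lineage score was -0.0417 ± 0.0615 (SD, n = 6) in DMSO-tagged, 0.0618 ± 0.0695 (SD, n = 13) in atrazine-tagged and -0.0615 ± 0.0837 (SD, n = 9) in control lineage animals. DMSO-tagged animals were lower than atrazine-tagged animals by 0.104 (95% interval of the difference -0.174 to -0.0359, exact permutation p = 0.00155, adjusted over 3 comparisons 0.00232). Atrazine-tagged animals were 0.123 higher than the control lineage (95% interval 0.0559 to 0.191, exact permutation p = 0.000778, adjusted 0.00232). The difference of DMSO-tagged less control lineage animals was 0.0198, with a 95% interval of -0.0688 to 0.106 (exact permutation p = 0.628), which includes differences nearly as large as that between atrazine-tagged and control lineage animals. Without M62 the difference between the tags was -0.0804 (exact permutation p = 0.0184, adjusted 0.0277). With the broad profile removed it was smaller, -0.0292 (exact permutation p = 0.0135, adjusted 0.0202).

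A score built in the same way from the 1000 windows that best separated diseased DMSO-tagged from diseased atrazine-tagged animals is called the tag score. In that comparison 95 windows had p below 0.0001, where uniform p-values would give 240.5. The score was 0.0755 ± 0.0264 (SD, n = 6) in healthy DMSO-tagged and -0.0589 ± 0.131 (SD, n = 13) in healthy atrazine-tagged animals. DMSO-tagged animals scored from 0.0418 to 0.117 (median 0.0703), and atrazine-tagged animals from -0.431 (M22) to 0.0437 (median -0.0123). The next lowest atrazine-tagged score was -0.1485 (M20). Neither the tag score nor the lineage score was run without M22. The groups overlapped at the highest atrazine-tagged scores. The difference of 0.134 had a 95% interval of 0.0281 to 0.248 (exact permutation p = 0.0154, adjusted over 3 comparisons 0.0463), and the adjusted p was above 0.05 when any DMSO-tagged animal was left out (0.0721 to 0.119). With the broad profile removed the difference was 0.0623 (exact permutation p = 0.0253, adjusted 0.0760). The control lineage animals had a mean tag score of 0.0348 ± 0.124 (SD, n = 9), which was 0.0407 below the DMSO-tagged mean (exact permutation p = 0.492).

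**Figure D2:**
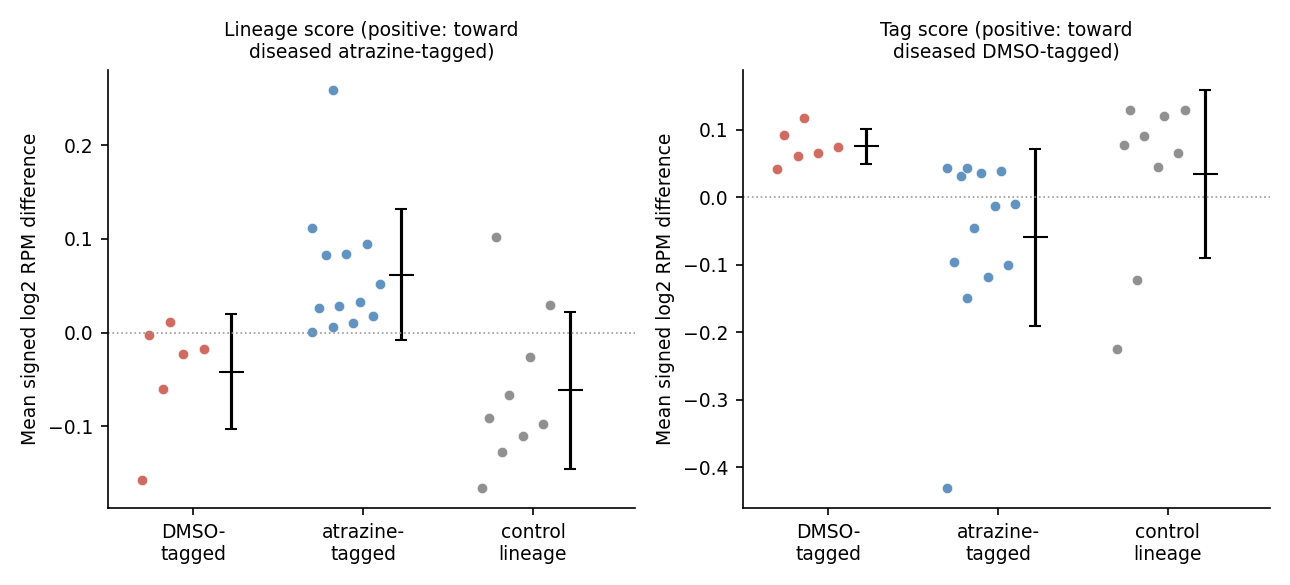
Lineage score (left) and tag score (right) of each healthy animal, as mean signed log2 RPM differences over 1000 windows chosen in diseased animals. Points are animals, horizontal offsets have no meaning, and bars are the mean ± SD. With these windows the lowest atrazine-tagged lineage score is 0.000325, and it was below 0 under each other choice of windows or scale.

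Shares of reads per chromosome differed between the tags in a broad pattern. Of the 23 chromosomes, 15 differed with an adjusted p below 0.05 (65.2%, exact permutation tests adjusted over chromosomes), 8 of them higher and 7 lower in the DMSO-tagged animals. Chromosome 12 took between 1.51% (M62) and 1.73% of the reads in DMSO-tagged animals, with a median of 1.69%. In atrazine-tagged animals it took between 1.70% and 2.32%, with a median of 1.80%, and in control lineage animals between 1.51% and 1.92%, with a median of 1.65%. Of the DMSO-tagged animals, 3 of 6 lay below the atrazine-tagged range, and all lay within that of the control lineage. The log2 ratio of DMSO-tagged to atrazine-tagged shares was -0.15 (exact permutation p = 0.00553, adjusted 0.0131).

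Chromosome 10 was also lower, with a log2 ratio of -0.09 (exact permutation, adjusted p = 0.0252), and so was chromosome 19, with -0.06 (adjusted p = 0.0435). Chromosome 2 was higher, with 10.2% to 10.8% of the reads in DMSO-tagged and 9.15% to 10.2% in atrazine-tagged animals and a log2 ratio of 0.06 (exact permutation, adjusted p = 0.00922). Chromosome 11 was higher with a log2 ratio of 0.05 (exact permutation, adjusted p = 0.00882). Between DMSO-tagged and control lineage animals the log2 ratio was at most 0.03 in size on any of these 15 chromosomes. Outside them it was 0.06 on chromosome X and 0.08 on the mitochondrial genome. The adjusted p of the exact permutation tests was 0.938 on all chromosomes, which does not show that these groups are alike.

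The calls rested on M62, which had the most extreme share of the 6 DMSO-tagged animals on many chromosomes. Without M62 no chromosome passed the adjusted threshold in exact permutation tests, and the smallest adjusted p was 0.0583. The 15 chromosomes kept their direction, and 12 of them had an unadjusted p below 0.05. The log2 ratio was then -0.13 on chromosome 12, -0.07 on chromosome 10, 0.05 on chromosome 2 and 0.04 on chromosome 11. In diseased animals all 15 had the same direction as well, with a smallest adjusted p of 0.322 over all chromosomes. The shares of an animal are parts of the same total, so these directions are not independent of one another.

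**Figure D3:**
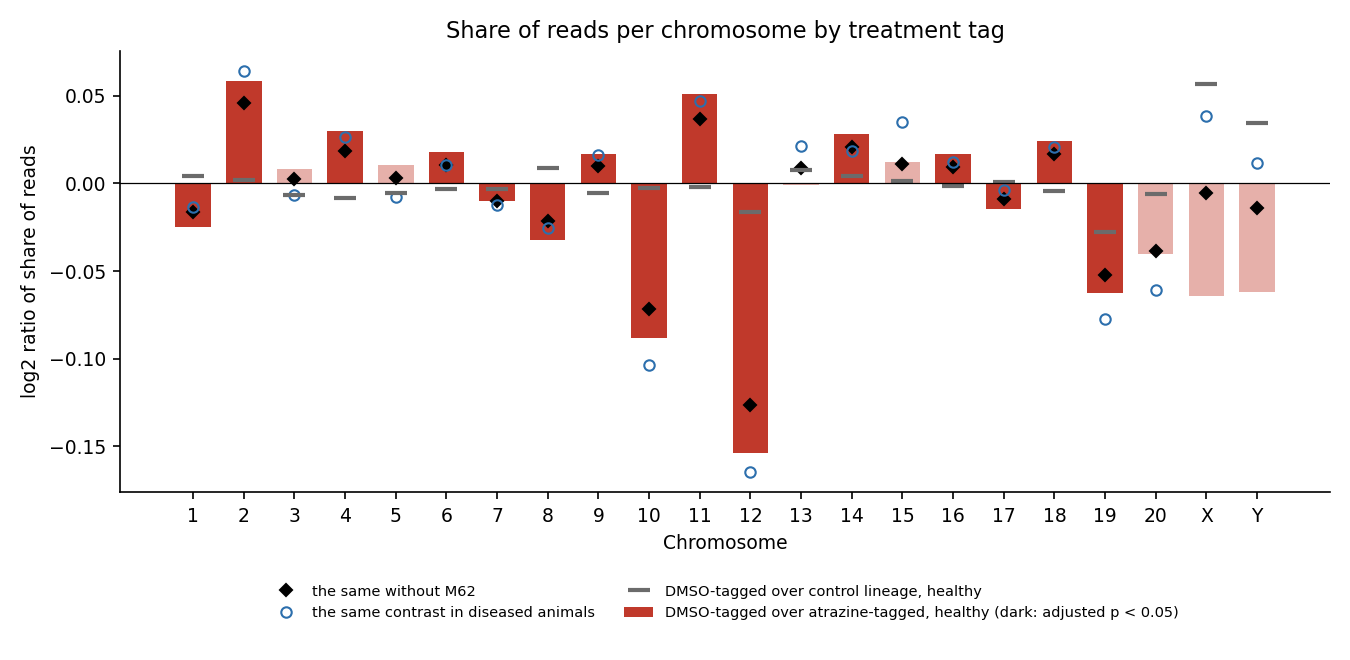
Log2 ratio of the share of reads per chromosome, mitochondrial genome left out. Bars give healthy DMSO-tagged over atrazine-tagged animals, diamonds the same without M62, open circles the same contrast in diseased animals and dashes DMSO-tagged over control lineage animals. Chromosome 12 has the lowest bar, at -0.15, and the diamonds point the same way as the dark bars.

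Window by window, no site separated the tags after adjustment. In 2533077 windows of 1000 bp with a mean of at least 10 reads, 7.22% had p below 0.05 and 508 windows (0.0201%) had p below 0.0001 in edgeR's quasi-likelihood test, where uniform p-values would give 253.3. Without M65 there were 255 such windows where uniform p-values would give 253.6, so that the excess was not seen, and without M62 there were 323. Of the 508 windows, 169 (0.00667% of the windows tested) were higher and 339 (0.0134%) were lower in the DMSO-tagged animals. None had an adjusted p below 0.05, and the smallest p was 5.42e-07. DESeq2 also called 0 windows at an adjusted p below 0.05, with 176598 (6.97%) at p below 0.05. By edgeR's exact test 32 of the 2533077 windows were called, with 7.88% at p below 0.05 and 1435 windows at p below 0.0001. The 508 windows formed 484 DHRs, of which 160 were higher and 324 were lower in the DMSO-tagged animals. The DHRs had a median length of 3000 bp. The median size of the log2 difference was 0.86 in DHRs that were higher and 0.96 in those that were lower. The RPM ranges of the tags did not overlap at the leading window of 51 of the 484 DHRs (10.5%), against 0.0148% of all windows tested, and the leading windows were chosen by the same contrast.

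The balance of higher and lower DHRs varied between chromosomes, which is a description without a test. On chromosome 12 all 16 DHRs were lower in DMSO-tagged animals, where 9.01 DHRs would lie if they were spread as the windows tested. Chromosome 10 held 25 lower and 1 higher DHR (20.4 in all if spread as the windows), chromosome 1 held 44 lower and 10 higher (49.3), and chromosome 15 held 29 lower and 9 higher (19.7). Many of the lower DHRs of chromosome 15 lay close together, between positions 29359001 and 32177000. The share of reads on chromosome 15 did not pass the threshold, with a log2 ratio of 0.01 (exact permutation, adjusted p = 0.332). Chromosome 6 held 14 higher and 4 lower DHRs (26.3 if spread as the windows), and chromosome 11 held 14 higher and 7 lower (16.2). The broad profile of each animal in 1 Mb bins was then removed, a setting chosen after the data were seen. This gave 279 DHRs, and the share of windows with p below 0.05 was 5.06%. Only 297 windows had p below 0.0001 in this setting, against 253.3 under uniform p-values. With so small an excess, the chromosomes and directions of the 279 DHRs are a description and not a set of called differences. Chromosome 12 then held 2 DHRs, both higher, and chromosome 10 held 2 in each direction. The balance turned on chromosome 15, with 3 lower and 6 higher, and on chromosome 11, with 4 higher and 7 lower. On chromosome 4 it turned from 15 higher and 8 lower to 4 higher and 13 lower. The balance also turned on chromosomes 2, 9, 13 and 17. It kept its direction on others, such as chromosome 1, with 22 lower and 9 higher, and chromosome 6, with 8 higher and 5 lower. Of the 484 DHRs, 142 (29.3%) overlapped one of the 279, which is 50.9% of the 279. The median size of the log2 difference at the 508 windows was then 0.78 instead of 0.92, and 507 of them had the same direction.

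**Figure D4:**
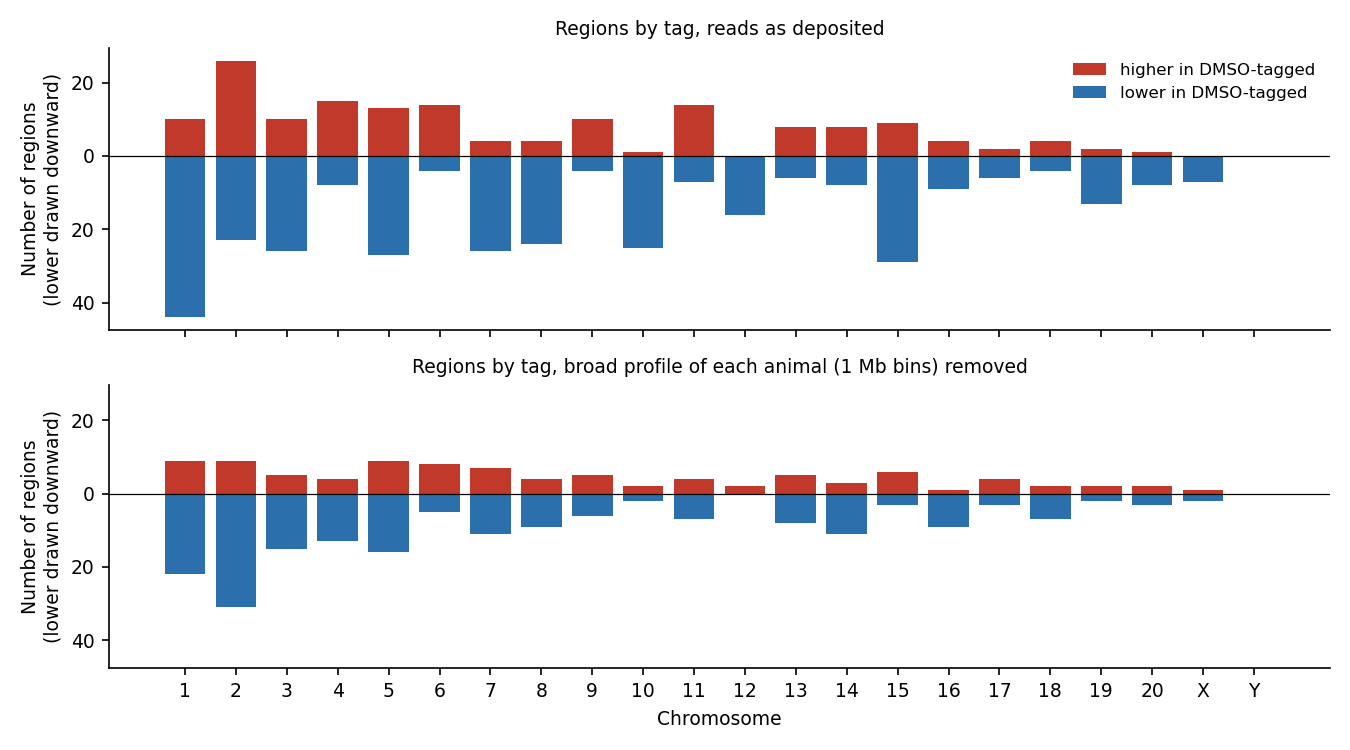
Number of DHRs per chromosome that were higher (red, upward) or lower (blue, downward) in DMSO-tagged animals, from the reads as deposited (top) and with the broad profile of each animal removed (bottom), mitochondrial genome left out. On chromosome 12 the 16 lower DHRs of the upper panel are absent from the lower panel. The lower panel rests on 297 windows with p below 0.0001, against 253.3 under uniform p-values.

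The DHR with the smallest p lay on chromosome 1. It spanned chr1:148632001-148654000 (Rnor_6.0) and held 6 windows with p below 0.0001. At its leading window, which starts at 148652001, the DMSO-tagged animals had 1.48 (M59), 1.60 (M62), 1.78 (M65), 2.22 (M67), 1.67 (M68) and 1.91 RPM (M69). Atrazine-tagged animals had between 1.75 and 7.61 RPM (M22) with a median of 2.62, and control lineage animals had between 1.70 and 2.36 RPM with a median of 1.88. The DMSO-tagged animals lay with the control lineage, while most atrazine-tagged animals were above both groups.

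The log2 difference of DMSO-tagged less atrazine-tagged animals at this window was -0.93 (SE 0.173, p = 5.42e-07 by edgeR's quasi-likelihood test, adjusted p = 0.328), and without M22 it was -0.76 (edgeR p = 1.67e-07). With robust empirical Bayes its edgeR p was 0.00530, and with the DESeq2 Wald test it was 0.00091. Atrazine-tagged animals were higher than the control lineage by 0.73 on the log2 scale (SE 0.139, edgeR adjusted p = 0.0220), and DMSO-tagged less control lineage animals differed by -0.20 (SE 0.174, edgeR p = 0.263). In the diseased animals the difference by tag was -1.20 (SE 0.476, edgeR p = 0.0152, adjusted 0.833). The highest diseased atrazine-tagged animal had 42.6 RPM there, while the medians were 2.78 in diseased atrazine-tagged and 2.13 in diseased DMSO-tagged animals. Another 3 DHRs nearby, at chr1:148459001-148464000, chr1:148469001-148471000 and chr1:148620001-148630000, were also lower, with log2 differences of -0.90, -0.76 and -0.91.

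At another window of chromosome 1 the tags did not overlap. At chr1:81238001-81239000 the DMSO-tagged animals had between 0.0923 (M67) and 0.215 RPM (M68) with a median of 0.169, from 2 to 52 reads. Atrazine-tagged animals had between 0.272 and 0.731 RPM with a median of 0.374. The control lineage animals overlapped both tags, from 0.163 to 0.511 RPM with a median of 0.241. The log2 difference by tag was -1.27 (SE 0.239, edgeR p = 6.59e-07, adjusted 0.328), it stayed below p = 0.0001 under all 28 alternatives, and it was -0.76 in diseased animals (SE 0.406, edgeR p = 0.0662). The highest diseased atrazine-tagged animal had 3.81 RPM, while the medians were 0.326 in diseased atrazine-tagged and 0.216 in diseased DMSO-tagged animals.

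Among the DHRs that were higher, chromosome 5 held the pair with the smallest p. At chr5:41168001-41169000 the DMSO-tagged animals had between 0.373 (M68) and 1.02 RPM (M67) with a median of 0.829, and the atrazine-tagged animals had between 0.176 and 0.787 RPM with a median of 0.314. In the control lineage the range was 0.313 to 0.853 RPM with a median of 0.452. The groups overlapped, with M68 and M59 inside the atrazine-tagged range. The log2 difference by tag was 1.08 (SE 0.207, edgeR p = 9.01e-07, adjusted 0.328), and in diseased animals it was -0.06 (SE 0.270, edgeR p = 0.834).

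At chr5:45451001-45452000 the tags did not overlap, with 0.490 to 0.929 RPM in DMSO-tagged and 0.180 to 0.434 RPM in atrazine-tagged animals, and medians of 0.593 and 0.332. Control lineage animals reached into both groups, from 0.164 to 0.737 RPM with a median of 0.382. The log2 difference was 1.00 (SE 0.190, edgeR p = 9.07e-07, adjusted 0.328), and -0.16 in diseased animals (SE 0.221, edgeR p = 0.474). Another window without overlap, at chr9:25116001-25117000, had 0.397 to 0.646 RPM in DMSO-tagged and 0.0713 to 0.345 RPM in atrazine-tagged animals, and the control lineage overlapped both with 0.219 to 0.626 RPM. Its log2 difference was 1.06 (SE 0.220, edgeR p = 5.40e-06, adjusted 0.435), with 0.38 in diseased animals (SE 0.230, edgeR p = 0.107).

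The remaining leading windows of small p were chr14:22618001-22619000, chr11:48443001-48444000, chr4:87787001-87788000, chr5:6373001-6374000 and chr17:40081001-40082000 among the DHRs that were higher. Their log2 differences were between 0.88 and 1.42. Those that were lower were chrX:155841001-155842000, chr1:148627001-148628000, chr2:21097001-21098000, chr4:58918001-58919000, chr8:21984001-21985000 and chr7:34275001-34276000, with log2 differences between -1.33 and -0.86. At the window of chromosome 7 the DMSO-tagged animals, with a median of 0.157 RPM, were below both the atrazine-tagged animals, with 0.354, and the control lineage, with 0.439. DMSO-tagged less control lineage animals differed there by -1.38 on the log2 scale (SE 0.268, edgeR p = 1.17e-06, adjusted 0.120). The DMSO-tagged animals did not overlap with the control lineage there, and they overlapped with the atrazine-tagged animals through M62 and M67. At chr17:40081001-40082000 the atrazine-tagged animals had 1 to 14 reads and the DMSO-tagged animals 6 to 49. This window passed the filter on low counts through the DMSO-tagged animals, where it was high. It had enough reads to be tested in only 25 of 28 alternatives, so its difference is given as a description.

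By the rule for counts alone, the mitochondrial genome held the DHR with the most windows at p below 0.0001. Whether mitochondrial reads came from retained histones was not tested. All 17 mitochondrial windows were higher in DMSO-tagged animals, with log2 differences between 0.68 and 0.90, and 7 had p below 0.0001. At the window that starts at 15001 the DMSO-tagged animals had 5.41 (M59), 10.5 (M62), 12.8 (M65), 23.2 (M67), 7.31 (M68) and 32.3 RPM (M69). Atrazine-tagged animals had between 3.67 and 14.4 RPM with a median of 7.85, and control lineage animals between 8.54 and 15.7 with a median of 10.6. M67 and M69 stood above all other healthy animals, and the other 4 DMSO-tagged animals lay within the atrazine-tagged range. The log2 difference of 0.85 (SE 0.182, edgeR p = 8.98e-06, adjusted 0.435) was 0.47 without M69 (edgeR p = 0.0118) and 0.69 without M67 (edgeR p = 0.000464). With robust empirical Bayes its edgeR p was 0.0221. With the broad profile in 1 Mb bins removed the log2 difference was 0.04 (edgeR p = 0.572) and no mitochondrial DHR was left, as a bin of that size holds the whole mitochondrial genome. The share of all reads on the mitochondrial genome differed by a log2 ratio of 0.65 (exact permutation p = 0.0977), and in diseased animals the ratio was -0.19 (exact permutation p = 0.555).

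After the mitochondrial DHR with 7 such windows and the chromosome 1 DHR with 6, the DHR at chr3:27126001-27135000 held 3. At its leading window, which starts at 27130001, the DMSO-tagged animals had 0.265 to 0.739 RPM with a median of 0.439, the atrazine-tagged animals 0 to 0.555 RPM with a median of 0.117 and the control lineage 0 to 0.368 RPM with a median of 0.0802. All groups overlapped, and 2 atrazine-tagged and 1 control lineage animal had no read. The log2 difference by tag was 1.46 (SE 0.323, edgeR p = 1.66e-05, adjusted 0.435), and the p was 0.0128 with robust empirical Bayes.

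**Figure D5:**
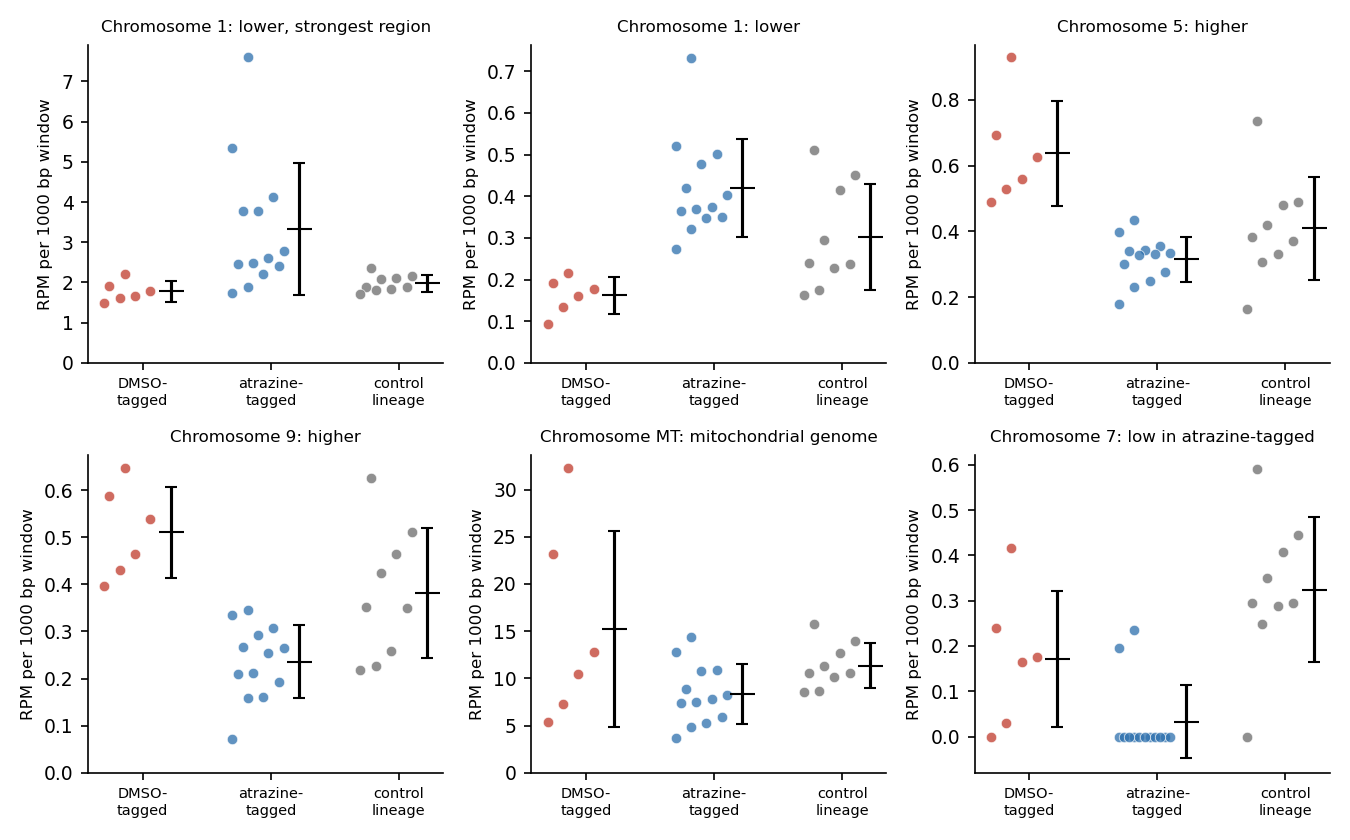
RPM of 6 windows of 1000 bp in each healthy animal: the leading windows of the DHR with the smallest p on chromosome 1, of the next on chromosome 1, of DHRs on chromosomes 5 and 9 that were higher, of the mitochondrial genome, and the window of chromosome 7 with the smallest p between atrazine-tagged and control lineage animals. Points are animals, horizontal offsets have no meaning, and bars are the mean ± SD. The tags do not overlap in the panels of chromosomes 5 and 9 and in that of the chromosome 1 DHR with 0.0923 to 0.215 RPM in DMSO-tagged animals.

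Gene names could be given for 3 of the 484 DHRs, where the study lists a gene for an overlapping region, and these were named for that reason and not by rank. Dazap1 encodes an RNA-binding protein that is needed for sperm formation. Its DHR at chr7:12300001-12306000 was lower in DMSO-tagged animals. At the leading window they had 0.0147 (M59) to 0.431 RPM (M65) with a median of 0.198, from 1 to 67 reads, against 0.272 to 1.07 RPM with a median of 0.446 in atrazine-tagged animals. The log2 difference was -1.15 (SE 0.260, edgeR p = 2.29e-05, adjusted 0.451), and -0.86 in diseased animals (SE 0.472, edgeR p = 0.0766). The highest diseased atrazine-tagged animal had 6.21 RPM, while the medians were 0.426 in diseased atrazine-tagged and 0.336 in diseased DMSO-tagged animals.

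Mx2 encodes an interferon-induced GTPase of the antiviral response. Its DHR at chr11:38021001-38024000 had 0.965 (M68) to 1.75 RPM (M67) in DMSO-tagged animals with a median of 1.45, 0.614 to 1.14 RPM with a median of 0.972 in atrazine-tagged animals and 0.694 to 1.06 RPM with a median of 0.973 in the control lineage. DMSO-tagged animals were mostly above both other groups. The log2 difference by tag was 0.59 (SE 0.142, edgeR p = 6.36e-05, adjusted 0.488) and that to the control lineage was 0.55 (SE 0.147, edgeR p = 0.000270). Sh3pxd2b encodes an adaptor protein of podosomes, cell protrusions that degrade matrix. Its DHR at chr10:17279001-17281000 had 0.109 to 0.277 RPM in DMSO-tagged and 0.106 to 0.892 RPM in atrazine-tagged animals, with medians of 0.217 and 0.385. The ranges overlapped, and the log2 difference was -1.04 (SE 0.253, edgeR p = 7.99e-05, adjusted 0.488). Of 28 alternatives, the p was no longer below 0.0001 in 15 for Sh3pxd2b, in 8 for Dazap1 and in 9 for Mx2.

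The windows with the smallest p in healthy animals, none of which passed adjustment, mostly had the same direction in diseased animals. Of the 508 windows, 502 were tested in the diseased animals, and 436 (86.9%) had the same direction, against 61.4% of all windows tested in both. Of the windows that were lower, 91.0% of 335 had the same direction, and of those that were higher, 78.4% of 167 did. Those with the same direction and p below 0.05 were 15.9%, against 4.19% of all windows, and none of the 502 had p below 0.0001 in the diseased animals, where 0.00395% of windows tested did. The median difference in diseased animals, signed by the healthy direction, was 0.30 on the log2 scale, against a median size of 0.92 in the healthy animals. Without the diseased animals M28 and M48 it was 0.17, and 0.19 instead of 0.43 for the windows that were lower.

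The 4 windows with the smallest p in diseased animals among those of the same direction were chr18:87929001-87930000, chr8:36735001-36736000, chr5:124166001-124167000 and chr14:102143001-102144000. At the first, DMSO-tagged animals had 0.735 to 0.945 RPM with a median of 0.834, and atrazine-tagged animals 0.817 to 1.66 RPM with a median of 1.31. The groups overlapped, and the log2 difference was -0.59 in healthy (SE 0.145, edgeR p = 9.90e-05) and -0.62 in diseased animals (SE 0.173, edgeR p = 0.000898, adjusted 0.833). The other windows had log2 differences of -0.88, 0.90 and -0.67 in healthy and -0.76, 0.68 and -0.51 in diseased animals. Of 28 alternatives in healthy animals, the p was no longer below 0.0001 in 17, 11, 13 and 3 at these 4 windows, in the order listed.

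Against the healthy control lineage, 137 windows (0.0054%) had p below 0.0001 in the DMSO-tagged and 926 (0.0365%) in the atrazine-tagged animals. Uniform p-values would give 253.5 in each contrast, so the 137 were fewer and the 926 were more. With an adjusted p below 0.05 by edgeR's quasi-likelihood test there were 14 (0.000552%) and 133 (0.00525%) windows, respectively. Of the 926 windows, 767 (0.0303% of the windows tested) were higher and 159 (0.00627%) were lower in the atrazine-tagged animals, while the 137 held 75 higher (0.00296%) and 62 lower (0.00245%). The groups hold 6 and 13 animals and share the control animals, so these counts do not compare the sizes of the differences. At single windows the DMSO-tagged mean was nearer to the control lineage than the atrazine-tagged mean in 49.9% of 2528125 windows, and in 42.1% of the 508 windows with p below 0.0001 by tag. The means rest on 6 and 13 animals and the 508 windows were chosen by the tag contrast, so these shares are a description and have no value under no difference to be read against.

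The window with the smallest p between DMSO-tagged and control lineage animals was chr1:97688001-97689000. DMSO-tagged animals had 0.235 (M65) to 0.554 RPM (M67) with a median of 0.346, control lineage animals 0.383 to 1.49 RPM with a median of 0.882 and atrazine-tagged animals 0.381 to 0.952 RPM with a median of 0.583. The atrazine-tagged animals lay between the other groups, and all groups overlapped. The log2 difference of DMSO-tagged less control lineage animals was -1.50 (SE 0.213, edgeR adjusted p = 0.000322), and that of atrazine-tagged less control lineage animals was -0.63 (SE 0.156, edgeR p = 8.54e-05, adjusted 0.263).

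The smallest p between atrazine-tagged and control lineage animals was at chr7:40061001-40062000, a window with too few reads to enter the comparison by tag. It passed the filter on low counts through the control lineage, where it was high, so its p is given as a description. It had no read in 11 of the 13 atrazine-tagged animals, and 13 reads in each of M31 and M45. In the control lineage 8 of the 9 animals had reads, with a mean of 0.325 ± 0.161 RPM (SD, n = 9), and in the DMSO-tagged animals 5 of 6 had reads, with a mean of 0.171 ± 0.151 RPM (SD, n = 6). The edgeR adjusted p was 2.99e-05 for atrazine-tagged against control lineage animals, and the p was 0.0175 (adjusted 1.00) for DMSO-tagged against control lineage animals.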

How the data were processed

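H3 ChIP-Seq reads were counted per animal in windows of 1000 bp over the rat genome (Rnor_6.0). The authors trimmed reads with Trimmomatic, mapped them with Bowtie2 and counted them with MEDIPS, and the deposited values are raw counts, 1 column per animal. The versions of these tools are not given in the sources used here. The table holds 2782040 windows. A further 298 columns with values per animal, and columns with the authors' fold changes and p-values, were not used. The labels give the antibody as pan H3, and the results of the study name a histone H3 antibody. The methods name antibodies against pan H3 and H3K27me3, and only the label tells which was used for a single library.

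Groups followed the lineage, disease and treatment tags. The animals, windows and tests were chosen with earlier results of these data known. Windows averaging 10 reads or more were tested with the quasi-likelihood test of edgeR 4.0.16 (R 4.3.3, limma 3.58.1) with trimmed mean of M-values (TMM) normalization and no covariates, and p-values were adjusted by Benjamini-Hochberg over all windows tested. The dispersion trend was estimated on 200000 random windows. The standard error is the size of the log2 difference over the square root of the F statistic. DHRs were built from windows with p below 0.0001, to which neighbours no more than 1000 bp away were joined while their p stayed below 0.1. The control contrasts came from 1 fit of 3 groups. For profiles, libraries were thinned to 22000000 reads, and bins with a mean of at least 50 reads were used as log2 reads with a pseudocount of 2. Scores used log2 RPM with a pseudocount of 2. Diseased profiles were thinned to 19000000 reads. Exact permutation tests were two-sided for differences of means and counted larger values of pseudo-F.

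Named windows were the leading windows of the 8 DHRs with the smallest p in each direction, the 3 DHRs with the most windows below 0.0001, the smallest p against the control lineage, the 4 smallest p in diseased animals among windows of the same direction, and DHRs with a gene listed by the study. Sequences were not used, since no genome of this build was at hand. The window test was tested on simulated counts, drawn independently for each window with the same dispersion at every window. They held no broad profile and no outlying library, so the simulation does not cover these features of the data. DESeq2 1.42.0, other filters, normalizations and omissions of animals were tried as alternatives.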

Additional observations from a re-analysis of the deposited data

Results flagged for a closer look

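Of 64 groups of 4 to 10 values tested with Dixon's criterion, 15 held a highest or lowest animal far from the others, where chance gives about 1 in 20. That rate holds for independent groups. Most of the 15 were chromosome shares of M62, which are parts of the same total, so the 15 are not independent. The total count of M68, 239635003, stood apart among the DMSO-tagged animals, and that of M2, 163344139, among the control lineage animals.

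M62 stood apart from the other DMSO-tagged animals in the share of reads on 11 chromosomes. It had the highest share on chromosomes 2 (10.79%), 4 (7.14%), 6 (5.635%), 9 (4.786%), 11 (3.591%), 14 (4.495%) and 16 (3.54%). It had the lowest share on chromosomes 8 (4.55%), 10 (3.597%), 13 (4.021%) and 17 (3.251%). The number of chromosomes that differed by tag was 15 with M62 and 0 without it.

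M67, the shallowest of the 19 libraries, had 1.154 RPM (25 reads) at chr14:22618001-22619000, where the next highest DMSO-tagged animal had 0.7049. It also had 1.154 RPM (25 reads) at chr5:124166001-124167000, where the next highest had 0.5246.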

How the results depend on the processing

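Closeness and the lineage score kept their direction and their side of the threshold under every alternative run. When any 1 of the 28 animals was left out, the difference in closeness was between 0.0241 and 0.0474, and the lineage score difference was between -0.114 and -0.0804 over the 6 DMSO-tagged omissions. With the broad profile removed the lineage score difference was smaller, -0.0292 (adjusted p 0.0202), and that in closeness was 0.00389. The position of closeness relative to 0 changed without M22. The tag score was less stable. Its difference was between 0.126 and 0.141 (adjusted p 0.0721 to 0.119) when any 1 DMSO-tagged animal was left out, 0.132 (adjusted p 0.0849) over windows with p below 0.0001 and 0.127 (adjusted p 0.0701) over 10000 windows. With the broad profile removed, a setting chosen after the data were seen, it was 0.0623 (adjusted p 0.0760). Without each animal in turn, also added after the data were seen, the pseudo-F by tag was between 2.59 and 3.73, and the number of chromosomes was between 0 (without M62) and 16. The number of DHRs was 1425 with edgeR's exact test, 279 with the broad profile removed, and between 246 (without M65) and 676 (without M53) without 1 animal, with 308 without M59 and 296 without M62. Windows with p below 0.0001 numbered 1435 with the exact test, 297 with the broad profile removed and between 255 (without M65) and 712 without 1 animal, with 323 without M62. Windows with an adjusted p below 0.05 numbered 27 without a filter on low counts, 32 with the exact test, 27 without M59 and M68, and between 0 and 2 without 1 animal (M59 1, M62 2, M53 1). The share of DHRs that were higher was 33.1%, 46.4% with the exact test and 24.2% without M59 and M68. Without M28 and M48, 78.2% of the windows had the same direction in diseased animals, against 58.3% of all windows. None of the 26 named windows tested by tag turned direction. The cause of these changes was not tested. With no window at an adjusted p below 0.05, the direction of such windows in diseased animals gave no value. No paired analysis was possible because no animal belongs to more than 1 of the groups compared, and replicate numbers only follow the order of the sample list.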

Other observations

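Among the healthy animals, M69 and M67 had the highest values at both the mitochondrial window that starts at 15001 (32.3 and 23.2 RPM) and chr5:6373001-6374000 (14.5 and 8.03 RPM). At chr5:6373001-6374000 the other DMSO-tagged animals had between 2.29 and 6.01 RPM and the atrazine-tagged animals between 1.59 and 6.77 RPM. The log2 difference there was 0.88 (SE 0.184, edgeR p = 5.42e-06, adjusted 0.435), 0.50 without M69 (edgeR p = 0.00812), and -0.54 in diseased animals (SE 0.340, edgeR p = 0.122). The highest diseased atrazine-tagged animal had 24.3 RPM, while the medians were 3.54 in diseased atrazine-tagged and 3.25 in diseased DMSO-tagged animals.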
